A study of Mus musculus with 7 samples.

Results

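The suppressors of cytokine signalling (SOCS) family was described in resident macrophages of the mouse peritoneal cavity. Its members are the 8 genes whose symbol in the count table is Cish or Socs1 to Socs7. Each symbol stood once among the 57010 genes of the table, and all 8 members passed the filter on low counts that left 15981 genes. Tim4+ resident macrophages of C57BL/6 mice had been sorted from peritoneal fluid after staining of CD11b, MHCII and Tim4, at a purity that the protocol puts above 97%. There were 3 libraries from control mice in the steady state and 4 libraries from mice at day 12 after injection of m204 MTO, an agent that the labels do not spell out. The sources used here do not give the dose, age or sex. RNA extraction is described for 3 biological replicates in each condition, whereas the titles list 4 at day 12. P-values therefore measure the spread between these libraries.

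Cytokines of the interleukin, interferon and growth hormone type bind receptors without a kinase of their own, and Janus kinases (JAKs) on those receptors phosphorylate STAT transcription factors. STATs switch on target genes, and several SOCS genes are among those targets, which closes a negative feedback loop. Every SOCS protein holds an SH2 domain, which binds phosphotyrosine, and a SOCS box, which recruits an elongin and cullin ubiquitin ligase. CIS (encoded by Cish) and SOCS1 to SOCS3 have short N-terminal regions and are known as the cytokine-inducible members. SOCS4 to SOCS7 have long N-terminal regions and are mostly studied with growth factor and insulin receptors. In macrophages SOCS1 is best known as a brake on interferon gamma signalling and SOCS3 as a brake on signalling through the interleukin 6 receptor chain gp130.

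The stretches shown here hold the letters of known STAT or interferon response elements beside 3 of the genes that rose, as a description of their sequence. They come from RefSeq windows of 300 bases, from 250 before to 50 after a gene's annotated start, on build GRCm38.p6, and are written 5′ to 3′ on the gene's strand with the matched letters in capitals. The table held windows for 4 of the 8 members: Cish, Socs1, Socs3 and Socs4. Position 1 is the first transcribed base in RefSeq.
Cish positions 1 to 30, chr9:107296659-107296688, plus strand: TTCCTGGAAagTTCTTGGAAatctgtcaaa
Socs1 positions -150 to -1, chr16:10785537-10785686, minus strand: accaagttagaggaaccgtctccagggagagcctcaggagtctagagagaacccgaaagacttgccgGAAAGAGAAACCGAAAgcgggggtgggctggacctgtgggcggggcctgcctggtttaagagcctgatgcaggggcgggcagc
Socs3 positions -250 to -101, chr11:117969467-117969616, minus strand: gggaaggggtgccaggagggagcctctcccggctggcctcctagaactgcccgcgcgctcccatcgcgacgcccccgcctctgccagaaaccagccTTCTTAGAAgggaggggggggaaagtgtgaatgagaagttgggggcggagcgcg
The Cish stretch lies at the RefSeq start. In one GENCODE transcript of the same build it falls inside the 5′ untranslated part of a longer first exon. The Socs1 stretch lies just upstream of the annotated first exon. The Socs3 stretch lies upstream of the coding transcript and inside an intron of a longer transcript in GENCODE.

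The STAT site TTCNNNGAA was searched on both strands, where N is any base. Cish held 2 matches, TTCCTGGAA at positions 1 to 9 and TTCTTGGAA at positions 12 to 20. Socs3 held 1 match, TTCTTAGAA at positions -154 to -146. Of 32544 distinct mouse windows, 8.33% held at least 1 match and 0.461% held 2 or more. The form with a 4-base spacer, TTCNNNNGAA, which STAT6 prefers, was present in 6.98% of all windows and in none of the 4. The core of the interferon response element, GAAANNGAAA, was added to the search after the sequences had been seen. Socs1 held 2 overlapping matches, GAAAGAGAAA at positions -83 to -74 and GAAACCGAAA at positions -77 to -68, whereas 3.45% of all windows held 1 or more and 0.221% held 2 or more. The windows of Cish, Socs3 and Socs4 did not hold these letters. A match is a description of the letters and not evidence of binding.

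Between steady state and day 12, Cish, Socs1, Socs2 and Socs3 rose 3.15-fold to 6.24-fold, and Socs4, Socs5, Socs6 and Socs7 did not pass the test. Levels are in CPM, a gene's reads relative to the size of its library, after TMM scaling, which sets library size by the bulk of genes. A gene was called at a Benjamini-Hochberg adjusted p under 0.05 in the edgeR quasi-likelihood test over all 15981 genes. By this rule 4 of 8 members were higher and 0 were lower, where 10.1% of all genes tested were called higher, 10.2% lower and 20.3% in either direction. No member was lower at an unadjusted p under 0.05 in edgeR, and DESeq2 and limma-voom also called 0 lower. The 7 libraries did not overlap between groups for the 4 members that rose and for Socs5, which was lower at day 12. Over all genes such separation was seen for 16.5% higher, 18.5% lower and 35.0% in either direction. The median log2 fold change was 0.82 over the 8 members and 0.00 over all genes tested. No member was near 0.82, as 4 stood at 1.65 or more and 4 at or below 0. In bulk RNA of sorted cells, a change in the share of cells that express a gene cannot be told apart from a change in RNA per cell.

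**Figure D1:**
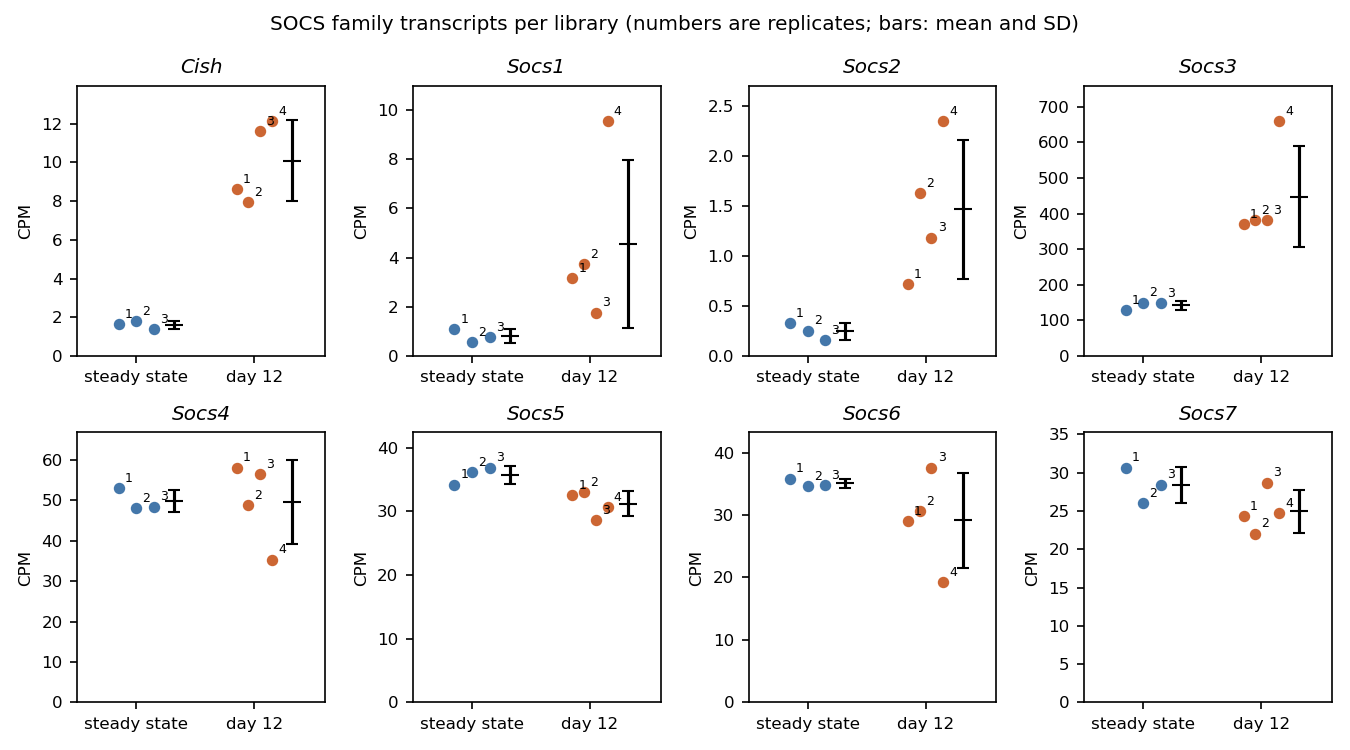
CPM (vertical axis, linear from 0) of each SOCS family gene in the 3 steady-state libraries (blue) and the 4 day-12 libraries (orange), with replicate numbers beside the points and black bars for mean and SD. In the upper row every day-12 point lies above every steady-state point, and in the lower row only Socs5 shows separate groups, with day 12 lower.

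Cish encodes CIS, which competes with STAT5 for docking sites on receptors and is itself a classic STAT5 target. The gene (ENSMUSG00000032578) spans bases 107173225 to 107179983 of chromosome 9 on GRCm39, the build of the count table. Its level was 1.66, 1.79 and 1.37 CPM in the 3 steady-state libraries and 8.64, 7.94, 11.6 and 12.1 CPM in day-12 replicates 1 to 4. All 4 day-12 libraries were high, replicates 3 and 4 the highest, and the lowest of them stood 4.43 times above the highest steady-state library. The mean went from 1.61 ± 0.214 CPM (SD, n = 3) to 10.1 ± 2.10 CPM (SD, n = 4). The log2 fold change was 2.64 with a standard error of 0.22 (95% interval 2.14 to 3.15, edgeR adjusted p 0.000128). Among all genes tested, 1.68% had a larger rise. Predicted genes on the other strand overlap Cish, and neither had more than 7 reads in any library.

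Socs1 encodes the member that blocks JAK activity most directly, through a kinase inhibitory region. The gene (ENSMUSG00000038037) lies on chromosome 16 from 10600104 to 10603400. Steady-state libraries held 1.097, 0.560 and 0.767 CPM, and day-12 replicates 1 to 4 held 3.18, 3.72, 1.76 and 9.55 CPM. The groups did not overlap, but day-12 replicate 4 was far above the others and replicate 3 was only 1.61 times the highest steady-state library. Means were 0.808 ± 0.271 CPM (SD, n = 3) and 4.55 ± 3.43 CPM (SD, n = 4). The log2 fold change was 2.49 with a standard error of 0.58 (95% interval 1.18 to 3.80, edgeR adjusted p 0.0165). This was the least certain of the 4 rises. It missed the threshold with limma-voom (adjusted p 0.0516) and in edgeR with steady-state replicate 2 (adjusted p 0.0734) or replicate 3 (adjusted p 0.0686) left out. Without day-12 replicate 4 the log2 fold change was 1.84 (edgeR adjusted p 0.00826).

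Socs2 encodes the regulator of growth hormone receptor signalling and had the fewest reads of the family. The gene (ENSMUSG00000020027) lies on chromosome 10 from 95221224 to 95253042. It had 11, 9 and 5 reads in the steady-state libraries and 27, 65, 45 and 81 reads in day-12 replicates 1 to 4. These are 0.326, 0.252 and 0.160 CPM against 0.715, 1.63, 1.18 and 2.35 CPM. Every day-12 library was above every steady-state library, with replicate 4 highest and replicate 1 lowest. The mean rose from 0.246 ± 0.0834 CPM (SD, n = 3) to 1.47 ± 0.696 CPM (SD, n = 4), a log2 fold change of 2.55 with a standard error of 0.48 (95% interval 1.46 to 3.64, edgeR adjusted p 0.00597). The steady-state counts are few, and 3 reads correspond to 0.0754 to 0.0958 CPM in these libraries. Socs2 passed the filter on low counts only with its day-12 libraries, which favours a call of higher over lower. Without that filter it was also called higher (edgeR adjusted p 0.000734).

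Socs3 encodes the inhibitor that docks on gp130 and on the receptors for leptin and G-CSF. It had more reads than any other member in every library. The gene (ENSMUSG00000053113) lies on chromosome 11 from 117856905 to 117860873. Steady-state libraries held 128, 150.1 and 149 CPM. Day-12 replicates 1 to 4 held 369.7, 382, 381 and 659.7 CPM. Replicates 1 to 3 lay close together at 2.46 times the highest steady-state level or more, and replicate 4 stood apart above them. Means were 142 ± 12.2 CPM (SD, n = 3) and 448 ± 141 CPM (SD, n = 4). The log2 fold change was 1.65 with a standard error of 0.22 (95% interval 1.16 to 2.15, edgeR adjusted p 0.00104). Without day-12 replicate 4 the log2 fold change was 1.41 (edgeR adjusted p 7.81e-05).

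**Figure D2:**
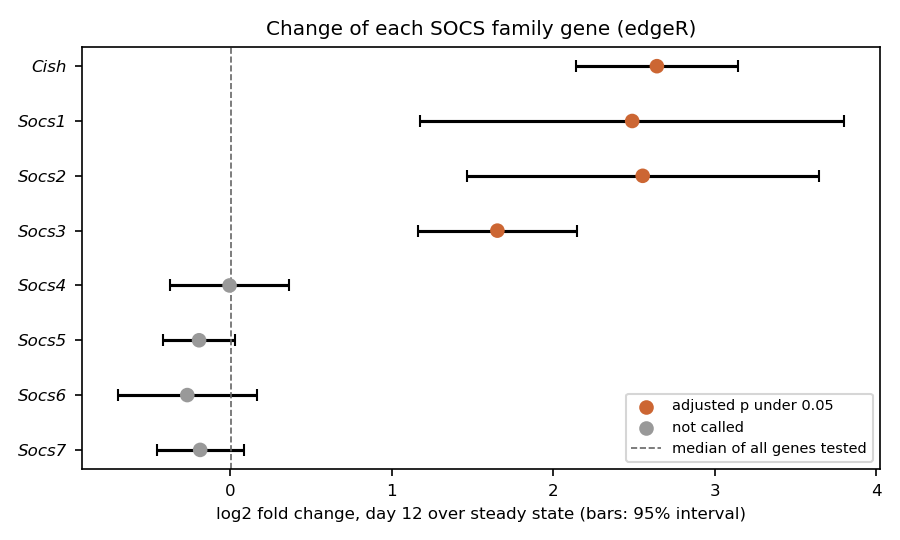
Log2 fold change of each SOCS family gene, day 12 over steady state (horizontal axis), with 95% intervals as bars, orange for an adjusted p under 0.05 and grey for genes not called. The intervals of Cish, Socs1, Socs2 and Socs3 lie above 1, and those of Socs4 to Socs7 span 0.

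None of the members with long N-terminal regions passed the test. Socs4 (ENSMUSG00000048379, chromosome 14 from 47514388 to 47533559) encodes a protein studied with the epidermal growth factor receptor. Its steady-state levels were 53.1, 48.1 and 48.5 CPM, and day-12 replicates 1 to 4 had 58.1, 48.9, 56.5 and 35.4 CPM. The groups overlapped, with the highest and the lowest libraries both at day 12. The log2 fold change was -0.00 (95% interval -0.37 to 0.36, edgeR adjusted p 0.987), and its sign differed between processing alternatives. As a fold the interval runs from 0.772 to 1.29.

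Socs5, which has been studied with the interleukin 4 and epidermal growth factor receptors, is ENSMUSG00000037104 on chromosome 17 from 87415107 to 87445267. Its level was 34.2, 36.1 and 36.9 CPM in the steady state and 32.6, 33.0, 28.7 and 30.7 CPM at day 12. All 4 day-12 libraries lay below all 3 steady-state libraries, by a small margin. The log2 fold change was -0.19 (95% interval -0.41 to 0.03, edgeR adjusted p 0.200), which did not pass the test.

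Socs6 and Socs7 encode adaptor-like members studied with receptor tyrosine kinases and insulin signalling. Socs6 (ENSMUSG00000056153, chromosome 18 from 88683348 to 88945605) had 35.8, 34.6 and 34.7 CPM in the steady state and 29.0, 30.7, 37.6 and 19.3 CPM in day-12 replicates 1 to 4. The tight steady-state group lay inside the wider day-12 range, and replicate 4 was lowest. The log2 fold change of Socs6 was -0.27 (95% interval -0.70 to 0.16, edgeR adjusted p 0.365). Socs7 (ENSMUSG00000038485, chromosome 11 from 97253261 to 97289368) had 30.7, 26.1 and 28.5 CPM against 24.3, 22.0, 28.7 and 24.7 CPM, again with overlap. Its log2 fold change was -0.19 (95% interval -0.46 to 0.08, edgeR adjusted p 0.312).

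**Figure D3:**
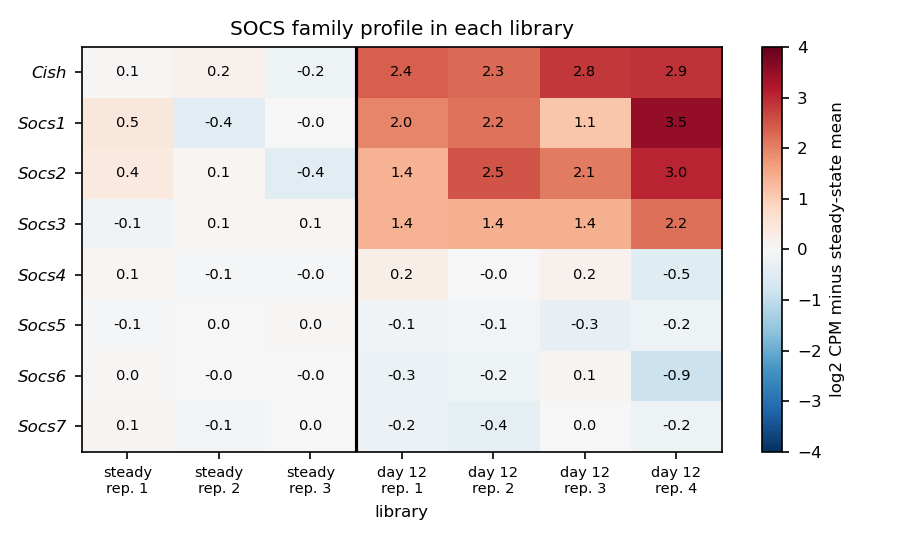
Log2 CPM of each SOCS family gene minus its steady-state mean (colour and printed value) in the 7 libraries (columns, steady state left of the line). Cish and Socs1 to Socs3 are positive in all 4 day-12 libraries, with day-12 replicate 4 the highest for each, while Socs4 and Socs6 are lowest in that replicate.

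Day-12 replicate 4 gave the highest level of Cish, Socs1, Socs2 and Socs3 and the lowest of Socs4 and Socs6. Summed over Cish and Socs1 to Socs3, the level was 131.5, 153 and 151 CPM in the steady state and 382, 395, 396 and 684 CPM at day 12. Summed over Socs4 to Socs7 it was 154, 145 and 149 CPM against 144, 134.5, 151.5 and 110.0 CPM. The first sum was nearly all Socs3 and separated the groups, as each of its genes did alone. The second overlapped. Reads of all 8 members together numbered 9379 to 10621 per steady-state library and 19860 to 27348 per day-12 library.

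Levels of different genes were compared as CPM per kilobase of annotated exons, with exon lengths over all transcripts of a gene in GENCODE. This length was 6419 bases for Cish, nearly the whole span of the gene, and 2908 for Socs1. Counting the exons of every transcript can understate a gene's level, so ranks and shares depend on it. In the steady state Socs3 stood first at 49.2 ± 4.21 CPM per kilobase (SD, n = 3). Socs4 at 7.25, Socs5 at 5.57, Socs7 at 3.91 and Socs6 at 3.09 followed, and the ranges of these 5 genes did not overlap between neighbours. Socs1 at 0.278 and Cish at 0.251 CPM per kilobase overlapped each other, and Socs2 was last at 0.0258. At day 12 the order of the first 5 was the same, with Socs3 at 155 ± 48.8 CPM per kilobase (SD, n = 4). The day-12 ranges of Socs4 (5.14 to 8.45) and Socs5 (4.47 to 5.14) met at 5.14, and those of Socs7 (3.03 to 3.95) and Socs6 (1.70 to 3.31) overlapped. Cish and Socs1 both reached 1.57 CPM per kilobase, and the range of Socs1, 0.606 to 3.28, covered that of Cish, 1.24 to 1.89. Socs2 stayed last at 0.154. Socs3 made up 70.7% ± 2.50 (SD, n = 3) of the family's summed CPM per kilobase in the steady state and 87.3% ± 3.06 (SD, n = 4) at day 12.

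Profiles over the 7 libraries were compared by the root mean square difference of log2 CPM after centring each gene on its own mean. Among Socs4 to Socs7 this distance was 0.182 to 0.292. Among the 4 genes that rose it was 0.471 to 0.726, smallest for Cish with Socs2 and largest for Cish with Socs1. Between the 2 sets it was 0.938 to 1.55. The distances follow from the levels given above and carry no test.

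Among 9360 other genes with a mean of at least 5 CPM, the gene closest to Socs3 was Sema6b, with a distance of 0.0787 over 7 libraries. Sema6b, a transmembrane semaphorin, had 21.3, 25.7 and 23.1 CPM in the steady state and 56.0, 54.8, 61.4 and 106.0 CPM at day 12, again with replicate 4 on top. Next were Cdk18 (distance 0.106), a cyclin-dependent kinase, and Mvd (distance 0.108), an enzyme of the mevalonate pathway. The closest gene to Cish was Ramp3, a partner of the calcitonin receptor-like receptor, with a distance of 0.222 and means of 14.3 and 87.1 CPM. Adcy3, an adenylyl cyclase, followed at 0.230. Socs1 was nearest to Fcgr4, an activating Fc receptor (distance 0.290, means 64.6 and 276 CPM), then to Zbp1, a nucleic acid sensor induced by interferon (0.329), and the cytokine gene Il27 (0.376). Socs2 was nearest to Me1, malic enzyme (0.330), then to Prss35 (0.380) and Il1rn, the interleukin 1 receptor antagonist (0.383). These genes shared the libraries and were picked for likeness, so their levels are a description with no test.

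**Figure D4:**
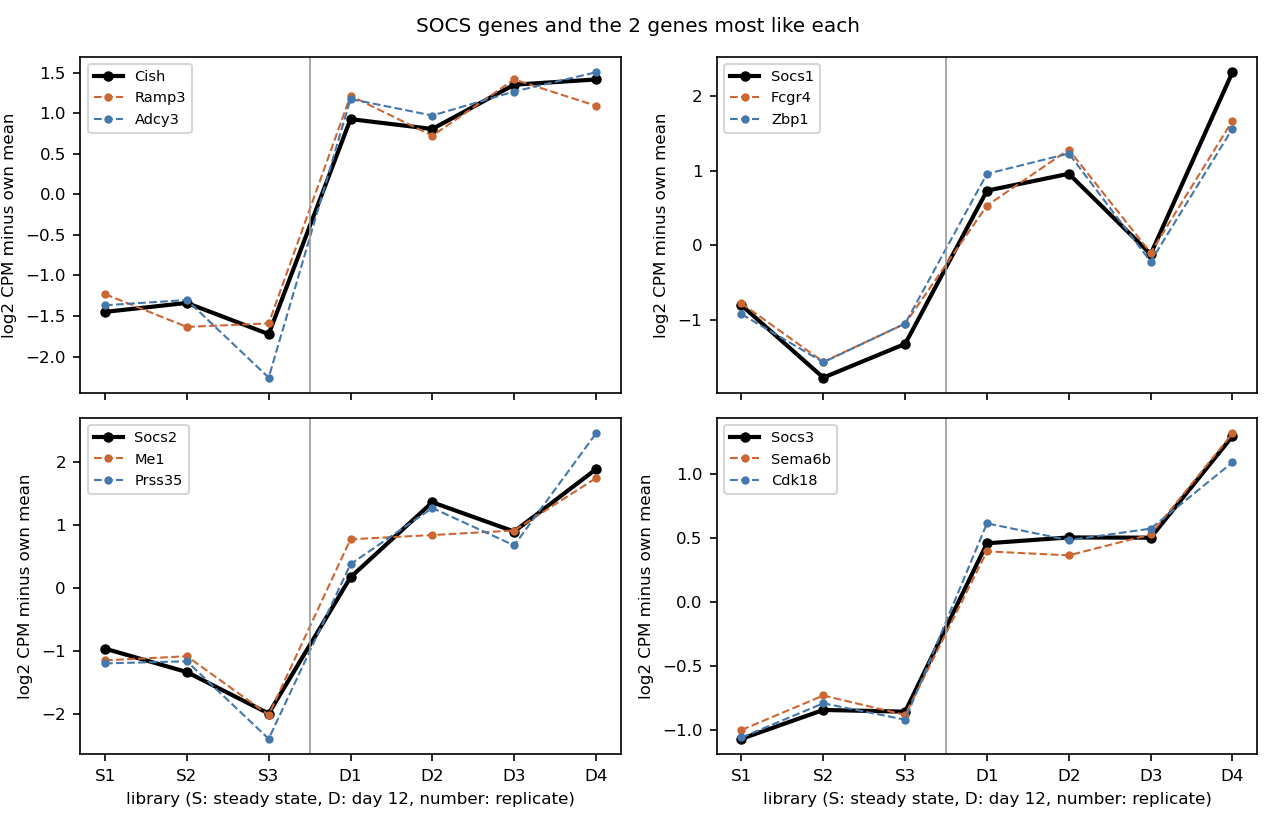
Log2 CPM minus each gene's own mean (vertical axis) over the 3 steady-state (S) and 4 day-12 (D) libraries for Cish, Socs1, Socs2 and Socs3 (black) and the 2 genes most like each (dashed). Socs3 and Sema6b run almost together with a distance of 0.0787, whereas the genes nearest to Socs1 lie at 0.290 and 0.329.

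The other genes of the pathway were taken from lists of its parts, and each count is set beside the 10.1% higher and 10.2% lower over all genes. Of 11 Janus kinases and STAT factors, all tested, 4 were higher, 2 lower and 5 not called, with a median log2 fold change of 0.02. With steady-state replicate 3 left out, 2 of the 11 were called higher. Stat3, the factor downstream of gp130, went from 181 ± 4.55 CPM (SD, n = 3) to 277.5 ± 24.1 CPM (SD, n = 4) with a log2 fold change of 0.62 (edgeR adjusted p 0.00359). Stat2, part of the type I interferon complex, went from 81.2 to 175 CPM with a log2 fold change of 1.11 (edgeR adjusted p 0.00347). Stat4 fell from 19.8 to 1.77 CPM (edgeR adjusted p 0.0119), a call that did not pass once the filter on low counts was dropped (adjusted p 0.05001). Without day-12 replicate 2 its log2 fold change was -4.49 in place of -3.48. Stat5b, which transmits growth hormone signals, fell by 0.43 on the log2 scale (edgeR adjusted p 0.0114). That call was lost without any 1 of the steady-state libraries, at adjusted p 0.0534 to 0.0698.

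Of 39 cytokine receptor chains 29 were tested, and 9 were higher, 4 lower and 16 not called, with a median log2 fold change of 0.20. The receptor genes Csf2rb, whose product is the shared beta chain for GM-CSF, and Csf2rb2 were among those that rose. Csf2rb had 249, 253 and 263 CPM in the steady state and 483, 492, 502 and 653 CPM at day 12, a log2 fold change of 1.06 (edgeR adjusted p 0.000811). Lepr, the leptin receptor, on which SOCS3 docks, reached 8.27 CPM from 0.293 CPM (edgeR adjusted p 0.00114). Csf3r, the G-CSF receptor and another docking partner of SOCS3, fell from 440 to 159.6 CPM, with a log2 fold change of -1.46 (edgeR adjusted p 0.00088). Ifnar1, a chain of the type I interferon receptor, fell from 136 to 73.2 CPM, with a log2 fold change of -0.89 (edgeR adjusted p 0.000478). The number called lower was 2 when steady-state replicate 2 or 3 was left out and 8 when day-12 replicate 4 was.

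Of 30 cytokine genes of the pathway only 9 had enough reads to be tested, and 4 of them were higher and 1 lower, with a median log2 fold change of 1.21. Il6, the ligand of the gp130 complex that SOCS3 limits, had 1.99, 1.71 and 1.31 CPM in the steady state and 22.7, 22.0, 21.7 and 13.1 CPM at day 12. Its day-12 libraries were all high, replicate 4 the least, and the log2 fold change was 3.57 with a standard error of 0.25 (edgeR adjusted p 6.86e-05). Osm, oncostatin M, another gp130 ligand, rose from 8.76 to 20.2 CPM (edgeR adjusted p 0.00132). Il7 rose from 1.95 to 5.21 CPM (edgeR adjusted p 0.00446). The remaining call, Il27 (edgeR adjusted p 0.0322), missed the threshold with limma-voom (adjusted p 0.0615), without the filter on low counts (0.0851) and with steady-state replicate 2 (0.119) or 3 (0.120) left out. Ebi3, a subunit of interleukin 27, was lower at 1.96 against 10.2 CPM (edgeR adjusted p 0.0214). The Ebi3 call was lost without any 1 of the steady-state libraries (adjusted p 0.0589 to 0.0700) and without the filter on low counts (adjusted p 0.0862).

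The ubiquitin ligase that the SOCS box recruits showed no call. Of its 7 listed parts, 0 were higher and 0 lower in edgeR, DESeq2 and limma-voom, with a median log2 fold change of 0.13. At an unadjusted p under 0.05 edgeR had 2 higher and 0 lower, and 1 was called higher with day-12 replicate 2 or 4 left out. Those with the lowest p were Ube2f, a NEDD8-conjugating enzyme, at 26.0 and 30.7 CPM (edgeR adjusted p 0.110), and Arih2, a ligase partner of cullin 5, at 35.3 and 41.8 CPM (edgeR adjusted p 0.117). Among 19 tested genes for other SOCS box proteins, 2 were higher and 1 lower, with a median log2 fold change of -0.01. Asb11 rose from 0.0595 to 1.68 CPM (edgeR adjusted p 0.00135), with a log2 fold change of 4.74 that was 5.68 without steady-state replicate 1. Asb4 had 10.04 and 19.7 CPM and Rab40b 0.827 and 0.204 CPM. Both passed edgeR, and neither did with steady-state replicate 1 left out (edgeR adjusted p 0.0529 for Asb4 and 0.0580 for Rab40b), nor did Asb4 without replicate 3 (0.0647). With day-12 replicate 3 or 4 left out, 2 and 4 of the 19 were called lower.

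Inhibitors of the pathway outside the SOCS family had a single call. Of 11 phosphatases, PIAS proteins and adaptors, 1 was higher and 0 lower, with a median log2 fold change of -0.08. At an unadjusted p under 0.05 edgeR had 1 higher and 1 lower, DESeq2 called 1 higher and 0 lower, and limma-voom called 0 in either direction. The gene called was Ptpn1, a JAK phosphatase, with 145 and 228 CPM and an edgeR adjusted p of 0.0498. That call was lost with limma-voom (adjusted p 0.0538) and without any 1 of 5 libraries (highest adjusted p 0.147). Without day-12 replicate 4, 2 of the 11 were higher and 2 lower, and without day-12 replicate 3, 2 were higher.

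Target genes of the STAT factors that induce SOCS genes were listed by cytokine. Of 12 STAT3 response genes, all tested, 7 were higher and 0 lower, with a median log2 fold change of 0.78; at an unadjusted p under 0.05 none was lower, and DESeq2 and limma-voom also called 0 lower. Nfil3, a transcription factor, went from 45.0 ± 3.80 CPM (SD, n = 3) to 146 ± 19.1 CPM (SD, n = 4), and its log2 fold change was 1.70 (edgeR adjusted p 9.11e-05). Saa3, an acute-phase protein, rose from 3564 to 15821 CPM (edgeR adjusted p 0.000173). Il1rn rose from 2.40 to 10.8 CPM (edgeR adjusted p 0.000334). Timp1, a protease inhibitor, rose from 0.0892 to 2.68 CPM (edgeR adjusted p 0.001), with few steady-state reads. Its log2 fold change was 4.85, and 6.36 without steady-state replicate 1.

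Of 18 tested genes of the interferon gamma response, 12 were higher and 1 lower, with a median log2 fold change of 1.29. Cd274, which encodes the checkpoint ligand PD-L1, had 11.5, 10.4 and 12.3 CPM in the steady state and 105, 101, 66.6 and 129 CPM at day 12, a log2 fold change of 3.13 (edgeR adjusted p 6.86e-05). Gbp3 and Gbp2, guanylate-binding proteins of a family with near-identical copies, rose to 278 and 240.0 CPM from 128 and 73.6 CPM. Irf8, a transcription factor of the monocyte lineage, fell from 126 to 13.6 CPM, a log2 fold change of -3.21 (edgeR adjusted p 0.000612). Without steady-state replicate 2 or 3, 7 of the 18 were called higher.

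Of 19 tested genes of the interleukin 4 and STAT6 response, 11 were higher and 2 lower, with a median log2 fold change of 2.73. Arg1, arginase 1, rose from 106 ± 21.7 CPM (SD, n = 3) to 5147 ± 1097 CPM (SD, n = 4), a log2 fold change of 5.61 (edgeR adjusted p 9.15e-06). Slc7a2, an arginine transporter, rose from 246 to 5588 CPM, Klf4 from 70.9 to 471 CPM and Tfec from 9.01 to 38.2 CPM. Mrc1, the mannose receptor, and Ccl24, both interleukin 4 targets, were lower, at 32.4 against 79.1 CPM and 43.5 against 98.4 CPM. With steady-state replicate 3 left out, Mrc1 no longer passed (edgeR adjusted p 0.0501). Of 10 STAT5 response genes, 3 were higher and 1 lower, with a median of 0.28. Pim1, a kinase gene and STAT5 target like Cish, went from 42.5 ± 1.90 CPM (SD, n = 3) to 202 ± 45.3 CPM (SD, n = 4), a log2 fold change of 2.25 (edgeR adjusted p 9.06e-05). Gadd45g rose from 1.31 to 17.7 CPM and Id2 from 88.0 to 213 CPM, and Bcl6, which STAT5 represses, fell from 36.7 to 22.2 CPM. Bcl6 no longer passed with that library left out (edgeR adjusted p 0.0648), and 2 of the 10 were lower without day-12 replicate 4.

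**Figure D5:**
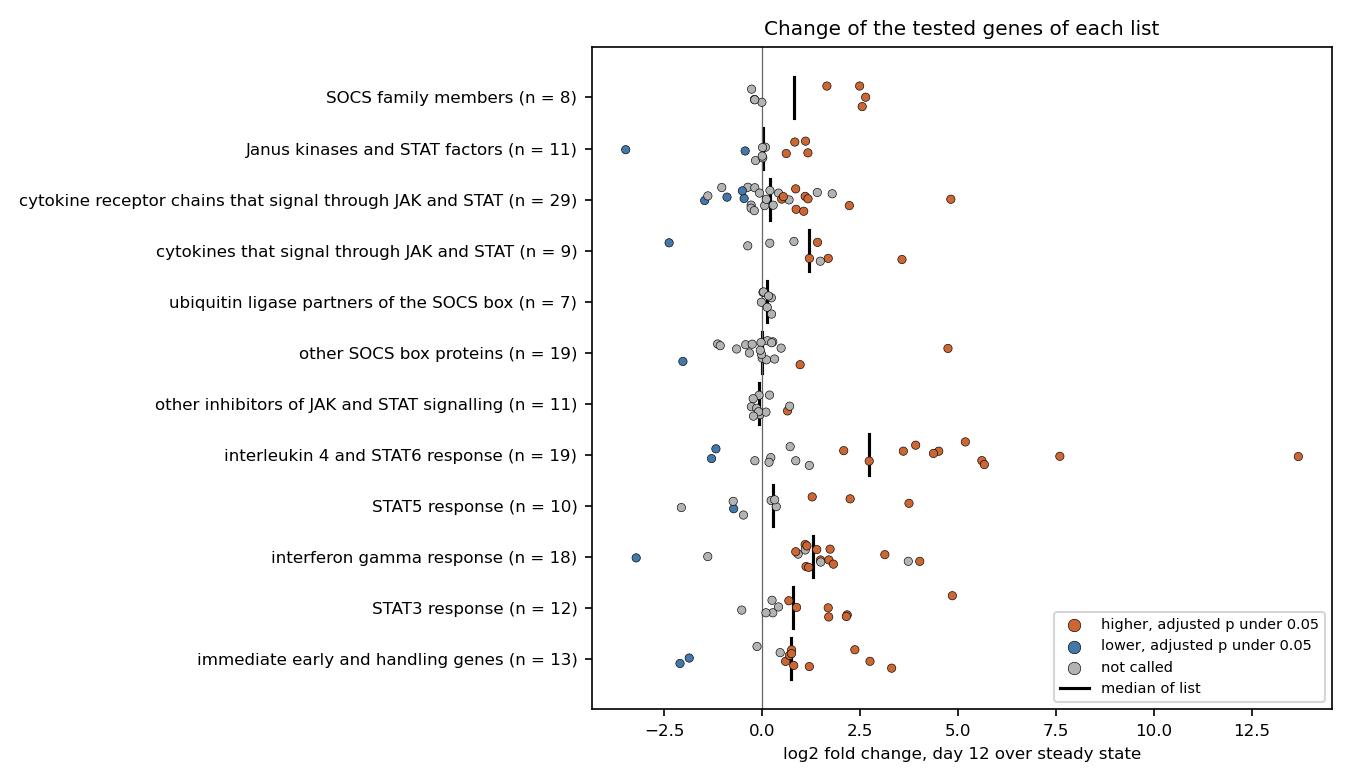
Log2 fold change, day 12 over steady state (horizontal axis), of each tested gene of the SOCS family and the 11 lists (rows, n tested in brackets), orange for called higher, blue for called lower, grey for not called, with a black line at the list's median. SOCS family genes fall into 4 at 1.65 or more and 4 at or below 0, while the ubiquitin ligase partners lie close to 0.

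The spread of the SOCS genes among the 4 day-12 libraries was set beside that of the lists. Socs1 was highest in replicate 4, then 2, 1 and 3, and mean log2 CPM of the interferon gamma list had the same order, at 6.00, 5.42, 5.04 and 4.48. Socs3 was highest in replicate 4, then 2, 3 and 1, as was the STAT3 list at 6.14, 5.59, 5.53 and 5.37. Replicates 2 and 3 were nearly equal for Socs3, at 381.6 and 381.1 CPM, so their order is not resolved. Replicate 4 was also first in most of the lists, so that place is not particular to the STAT3 list. The order of Socs1 was shared by 4 of the 11 lists, which besides the interferon gamma list were the Janus kinases and STAT factors, the other inhibitors and the STAT5 response. Those of Socs2 and Socs3 were shared by 2 each, the STAT3 response and the receptor chains. The order of Cish, replicates 4, 3, 1 and 2, differed from that of the STAT5 list and was shared by the other SOCS box proteins alone. With 4 libraries these orders are a description.

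Markers of the labelled cell type were present in every library. Timd4, which encodes Tim4, was at 963 CPM in the steady state and 495 CPM at day 12, Adgre1 (F4/80) at 2573 and 4734 CPM, Itgam (CD11b) at 1328 and 2133 CPM, and Csf1r at 2025 and 1505.0 CPM. Of the 6 listed macrophage markers 3 were called higher (Itgam, Adgre1 and Mertk) and 2 lower. Those lower were Timd4, used in sorting (edgeR adjusted p 0.00484), and Csf1r (edgeR adjusted p 0.0304). Over all genes tested 10.1% were called higher and 10.2% lower. Summed B cell markers went from a range of 6.67 to 10.3 CPM to a range of 21.2 to 47.7 CPM, with 5 of 8 called higher. The summed neutrophil list, nearly all Csf3r, went from 432 to 448 CPM down to 110 to 199 CPM. Among its other markers Ly6g and Mpo were at 0 in every library. S100a9 had 0 reads in the steady state and 0, 1, 8 and 29 reads in day-12 replicates 1 to 4, highest in the replicate with the most Socs3. Retnlg had 0 reads in the steady state and 2, 1, 6 and 4 reads at day 12, and S100a8 went from 0.775 to 1.37 CPM with no overlap of the groups but no call. Red cell and platelet markers, nearly all Pf4, were at 464 to 696.5 CPM in the steady state and 15.2 to 80.9 CPM at day 12. The others, Hbb-bs, Hba-a1 and Ppbp, were at means of 0.12 CPM or less in both groups. Monocyte markers ranged from 45.2 to 48.7 CPM in the steady state and from 22.9 to 178 CPM at day 12, and dendritic cell markers from 29.4 to 54.5 and from 64.8 to 379 CPM. The change in the dendritic cell sum came from Cd209a (37.1 and 172 CPM, not called), while Zbtb46 was at 5.32 and 5.25 CPM and Flt3 and Xcr1 were under 0.1 CPM on average. Endothelial markers went from 1.13 to 1.62 up to 4.47 to 14.1 CPM, nearly all of it Pecam1 (1.17 and 7.82 CPM), with Cdh5, Kdr and Tek at means of 0.151 CPM or less. Summed markers of T cells, NK cells, eosinophils, mast cells, fibroblasts, mesothelium and tumour epithelium were low, at 3.14 CPM or less in every library, but several were higher at day 12. NK cell markers went from 0.0319 to 0.0593 CPM up to 0.450 to 0.880 CPM, and fibroblast markers from 0 to 0.224 CPM up to 0.880 to 1.39 CPM. Tumour epithelium markers went from 0 to 0.208 CPM up to 0.319 to 0.689 CPM, and mesothelial markers from 0 to 0.0280 CPM up to 0.105 to 0.327 CPM. Gzma, Col1a2, Lck and Siglecf were called higher. Gzma, Col1a2 and Lck had 0 to 6 reads per steady-state library. They passed the filter on low counts only through day 12, so their calls could only be upward. Among T cell, NK cell and fibroblast markers, 1 of 7, 1 of 4 and 1 of 5 were tested. Of the eosinophil markers besides Siglecf, Prg2 and Epx were at 0 in every library. Ccr3 went down from 1.33 to 0.536 CPM, with no overlap of the groups but no call. Day-12 replicate 4, which was highest for Socs3, had 178 CPM of monocyte markers, the most of any library, of which Plac8 made 143 CPM and the defining marker Ly6c2 0.755 CPM. Of 13 immediate early and handling genes, which respond to cell isolation, 9 were higher and 2 lower, with a median log2 fold change of 0.75. Fos went from 48.6 to 251 CPM and Egr1 from 6.56 to 44.2 CPM, while the heat shock genes Hspa1a and Hspa1b, near-identical copies, went from 82.3 to 22.7 and from 201 to 47.2 CPM. The part of these cells and of handling in the SOCS results was not tested.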

How the data were processed

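The authors deposited 1 table of raw read counts per gene for 7 poly-A libraries, made from 30 ng of total RNA with a directional kit as single reads of 100 bases, per the labels' protocols. STAR 2.7.11a, SAMtools 1.10, featureCounts (Subread 2.0.6), DESeq2 1.40.2 and the build GRCm39 are named in the submitters' processing notes. The annotation, the strand setting and the treatment of reads with several matches are not stated in the sources used here. They could change genes that overlap or have near-identical copies. Titles gave each sample's group and replicate.

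Counts were tested with edgeR 4.0.16 (R 4.3.3): filterByExpr (minimum count 10, minimum total 15), TMM factors, robust quasi-likelihood F test, the group as its only term, and Benjamini-Hochberg adjusted p over 15981 genes. Totals were 32077050 to 38586694 counts, so 1 read is 0.0251 to 0.0319 CPM. The biological coefficient of variation was 0.219 from the common dispersion. Standard errors and 95% intervals follow from each gene's fold change and F. No libraries were identical. Alternatives were RLE and no scaling, 2 other filters, DESeq2 1.42.0, limma-voom (limma 3.58.1), each library left out, and a replicate block. The procedure was tested on simulated counts of 15301 genes, with 66 or 67 genes changed at each fold. It recovered 22.4% of genes changed 1.5-fold, 68.7% of those changed 2-fold and 95.5% of those changed 4-fold, with 6 false calls. Changed genes were drawn from those above 1 CPM in the steady state, so the rates do not cover Socs1 and Socs2. The simulation gave both groups the same spread, whereas the real day-12 libraries differed more from each other than the steady-state libraries did. Exon lengths came from GENCODE (GRCm38) and promoter windows from RefSeq.

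The members and the gene lists were chosen with earlier results of these data known. All members were named, and of each list the 4 called genes with the lowest p (2 where none was called), called genes that moved against the majority (up to 2), and the 3 genes most like each called member. Other called genes listed by symbol alone (Csf2rb2 and Il27) were chosen after their values were seen. So were the single marker genes of other cell types. Some items that the rule takes are not reported here.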

Additional observations from a re-analysis of the deposited data

Results flagged for a closer look

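The Socs3 level of day-12 replicate 4, 659.7 CPM, stood apart from the other 3 day-12 libraries at 369.7, 382 and 381 CPM. The gap to the nearest of them was 0.959 of the group's range, above Dixon's 95% critical value for 4 samples. The other 7 members had 0.166 to 0.749 in the same check of the day-12 group. Chance passes the critical value in about 1 in 20 groups, and 8 were checked. Without this library Socs3 was still higher at day 12 in edgeR.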

How the results depend on the processing

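Cish, Socs2 and Socs3 kept their direction and their call under every alternative run, and Socs5, Socs6 and Socs7 stayed negative and uncalled. Members called higher numbered 3 or 4 and members called lower 0 under all of them, and the family's median log2 fold change ranged from 0.77 to 0.89. The call of Socs1 was lost with limma-voom (log2 fold change 2.23) and without steady-state replicate 2 (2.28) or 3 (2.45). Leaving out 1 library at a time, its log2 fold change ranged from 1.84 to 2.80. Socs4, at -0.00, changed sign with RLE factors (0.00725), no scaling (0.0180), the filter of 1 CPM in 3 libraries (0.0303) and DESeq2 (0.00254), and ranged from -0.0720 to 0.130 with 1 library left out. The cause was not tested. Over all genes 3242 were called, 1761 to 4599 with 1 library left out; the lowest counts, 1868, 1804 and 1761, came without steady-state replicate 1, 2 or 3, where only 2 steady-state libraries remain. The replicate block, which fits day-12 replicate 4 by its own term and so without weight, called 4278 genes and gave a log2 fold change of 1.81 for Socs1 and 0.125 for Socs4. Deviations of same-numbered libraries correlated at -0.14, 0.01 and 0.20 across genes, and those of the other pairs at -0.20 to 0.19. So few pairs cannot show whether the numbers mark a pairing, and the titles name none. Under the block the calls of Ccl24, Hspa1a and Stat4 were lost, and Ebi3 had a log2 fold change of -3.02 in place of -2.37. For Socs2 in the steady state, 5 to 11 reads per library limit the precision. Socs1 and Socs2 passed the filter of 1 CPM in 3 libraries only through day 12.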
